A study of Mus musculus with 13 samples.

Results

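*Trp53*, the gene of the transcription factor p53, and 9 genes that p53 is known to switch on were followed in isolated mouse glomeruli after injection of antibodies against the podocyte antigen THSD7A, a model of membranous nephropathy (MN). The 10 members were *Trp53*, *Mdm2*, *Cdkn1a*, *Ccng1*, *Bax*, *Bbc3*, *Trp53inp1*, *Eda2r*, *Sesn2* and *Phlda3*, chosen by gene symbol among 35967 symbols, and all 10 were among the 14322 genes tested. Wild-type Balb/c mice received 2 mg of rabbit IgG into the peritoneum, either preimmune IgG (control, n = 5) or anti-THSD7A IgG, and glomeruli were taken 1 day (n = 4) or 5 days (n = 4) later. The control group joins mice of both days, and which control mouse belonged to which day is not stated. The study used male mice for this model, and the labels give no age. The paper's methods give an age in weeks for knockout mice and their littermates in this model, without a separate age for the mice sequenced. No group carried an altered allele, and all groups received rabbit IgG. Glomeruli were obtained by perfusing kidneys with magnetic beads and digesting the tissue with collagenase, and 1 RNA-seq library was deposited per replicate. The labels number the replicates without naming animals, and the paper states 4 to 5 biologically independent animals per group for this RNA-seq. The p-values measure the spread between these libraries.

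p53 is a transcription factor that is held low by the ubiquitin ligase MDM2, itself the product of a p53 target gene, and that accumulates after DNA damage and other stress. Its targets arrest the cell cycle, induce apoptosis or adjust metabolism and survival signals. Podocytes, the postmitotic cells that cover the glomerular capillaries and carry THSD7A, withstand entry into the cell cycle poorly. p53 is controlled largely through the stability of its protein, so that RNA of *Trp53* reports on supply of the transcript and RNA of the targets reports on transcription downstream.

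p53 binds DNA through a 10-base motif of 3 purines, C, A or T, A or T, G and 3 pyrimidines, and a full response element joins 2 copies of it. The motif reads the same on both strands, so both were searched, in windows from 250 bases before to 50 bases after each RefSeq gene start. Windows of 9 members were in the table, and 5 members (55.6%) held the motif, *Bax*, *Mdm2*, *Ccng1*, *Trp53* and *Cdkn1a*, against 9.55% of all 27025 genes. Among the other listed p53 targets it was found in 6 of 21 genes (28.6%), among p53 regulators in 2 of 24 (8.33%). A pair of exact motifs at most 13 bases apart was found in *Cdkn1a*, with 12 bases between the copies, and in 0.0740% of all genes. These sites are shown because they hold the letters that the factor recognizes, with the motif in capitals, in the direction of the gene. The sequences are RefSeq promoters of GRCm38.p6, each matched exactly to 1 place of GRCm39, whose coordinates are given. They lie at chr7:45116504-45116533 (minus strand) for *Bax*, chr10:117546830-117546859 (minus) for *Mdm2*, chr11:40646279-40646308 (minus) for *Ccng1*, chr11:69471100-69471129 (plus) for *Trp53* and chr17:29309870-29309921 (plus) for *Cdkn1a*.
Bax: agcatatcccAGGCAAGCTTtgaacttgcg
Mdm2: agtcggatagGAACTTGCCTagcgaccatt
Ccng1: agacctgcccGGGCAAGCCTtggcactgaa
Trp53: acccacggaaGGACTTGCCCttacttgtta
Cdkn1a: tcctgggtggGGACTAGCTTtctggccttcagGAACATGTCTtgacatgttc
The first base in capitals stands 201 bases before the start of *Bax*, 186 before that of *Mdm2*, 185 before that of *Ccng1*, 75 before that of *Trp53* and 73 before that of *Cdkn1a*. For *Cdkn1a* this is the start with the window chr17:29309703-29310002. The window of its other RefSeq start, chr17:29312493-29312792, held 0 motifs. Only exact matches are in capitals. In *Cdkn1a* the 10 bases directly after the copy nearer the start miss the motif by their first base alone. The spacing of 12 bases in *Cdkn1a* and the single copy in *Ccng1* therefore hold for exact matches only. Which of these bases p53 binds was not tested. A match of letters does not show binding, and response elements in introns or farther from the start lie outside these windows. The member with the motif pair, *Cdkn1a*, and the member with the lowest adjusted p at day 5, *Ccng1*, are described with their values below.

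Expression was given as TPM, a measure of transcript abundance in which reads are divided by transcript length and rescaled to a fixed total per library, so that levels of different genes can be set side by side. Read depth cannot be recovered from such values and was unknown. In each library 46.5% to 49.5% of symbols had a TPM of 0, and Spearman correlations between libraries lay between 0.971 and 0.988 across the tested genes. Glomerular markers were abundant in every library, with 9 podocyte markers summing to at least 6931 TPM. Of 8 distal tubule and collecting duct markers *Pvalb* was called higher at day 1, where 0.0908% of all tested genes were called in either direction. These markers summed to 270 to 547 TPM in control, 531 to 967 TPM at day 1 and 367 to 500 TPM at day 5, and the 8 proximal tubule markers to 239 to 860, 511 to 771 and 377 to 515 TPM, respectively. At day 1 all 8 markers of each list had a log2 fold change above 0, with a median of 0.73 in each. In each list 5 of the 8 had an unadjusted p under 0.05 at day 1 (limma), beside 12.6% of all tested genes. Control replicate 5 had the highest proximal tubule sum of all libraries (860 TPM) and the lowest sum of 8 mesangial markers (1833 TPM against at least 2318 TPM elsewhere). It also had the lowest control level of *Trp53*, *Mdm2*, *Trp53inp1*, *Bax*, *Bbc3* and *Phlda3* and the highest of *Ccng1*. The 10 leukocyte markers summed to 29.6 to 65.3 TPM, and *Adgre1*, *Cd3e* and *Cd79a* did not pass the filter on low values. The part of tubular transcripts in the results was examined only with marker scores as covariates, given beside the results they touch. In bulk RNA, fewer cells of a type and less RNA per cell cannot be told apart.

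No member passed both thresholds of the study at either day, a log2 fold change of more than 0.5 in size at an adjusted p below 0.05, which together define a called gene (limma with Benjamini-Hochberg adjustment over all tested genes). The thresholds are those of the study but the test is not. The paper tested counts with DESeq2 and reports more changed genes at both days than were called here. Of the 10 members 0 were called at day 1, where 0.0908% of all tested genes were called, 0 at day 5, where 3.21% were called, and 0 between day 5 and day 1, where 1.81% were called. At an unadjusted p under 0.05 there were 3 members at day 1 (12.6% of all tested genes), 5 at day 5 (20.1%) and 1 between the days (15.5%). The median log2 fold change of the members was -0.08 at day 1, 0.07 at day 5 and 0.09 between the days, beside -0.00, -0.00 and 0.00 for all tested genes. *Ccng1* was the member with an adjusted p under 0.05, at day 5, where 6.12% of all tested genes passed that limit at any fold. Between day 5 and day 1, 0 members passed it beside 2.38% of all tested genes. *Bbc3* and *Phlda3* came next, with adjusted p-values of 0.0641 and 0.0683 (limma).

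**Figure D1:**
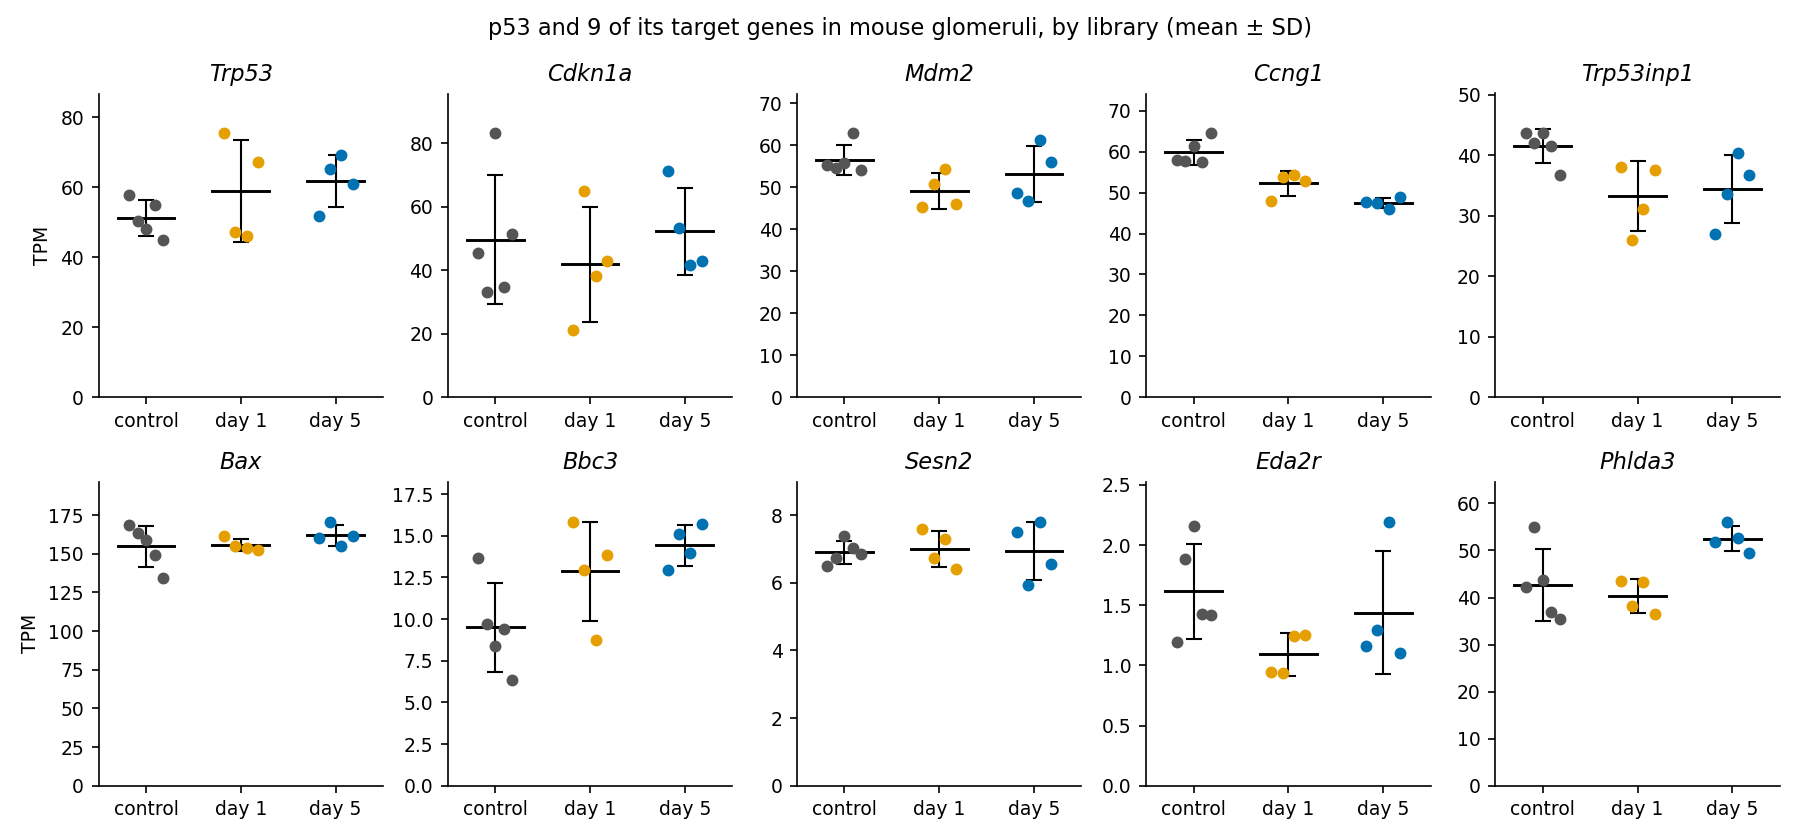
TPM of the 10 members in each library (points), with the mean and SD of the group (bars), for control (n = 5), MN day 1 (n = 4) and MN day 5 (n = 4). All axes start at 0. The MN libraries of Ccng1 lie below all control libraries, and those of Cdkn1a spread from 21.1 to 71.1 TPM inside or below the control range.

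The level of *Trp53* itself, on the plus strand of chromosome 11 of GRCm39 (69469669 to 69482701), was 57.7, 50.4, 48.1, 54.9 and 44.9 TPM in control libraries 1 to 5. At day 1 it was 75.4, 47.2, 46.1 and 67.0 TPM, and at day 5 it was 51.6, 65.2, 69.1 and 60.9 TPM. Day 1 libraries 1 and 4 lay above every control library while libraries 2 and 3 lay inside the control range, and at day 5 all libraries but replicate 1 lay above it. The mean was 51.2 ± 5.14 TPM (SD, n = 5) in control, 58.9 ± 14.6 TPM (n = 4) at day 1 and 61.7 ± 7.51 TPM (n = 4) at day 5. The log2 fold change was 0.22 at day 1 (SE 0.14, limma adjusted p = 0.538) and 0.30 at day 5 (SE 0.14, limma adjusted p = 0.244), with a 95% interval from 0.00 to 0.60 at day 5. An exon of *Wrap53*, which lies on the opposite strand, overlaps *Trp53*, and the strand setting of the counting is not given in the sources used here. *Wrap53* had a mean of 13.6 TPM in control, 12.6 TPM at day 1 and 13.1 TPM at day 5 and was not called.

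The 3 tested genes whose level was most like that of *Trp53* over the 13 libraries, by Pearson's r on the log2 scale, were *Cdr2l* (r = 0.927, Spearman's rho = 0.890), *Hnrnpd* (r = 0.918, rho = 0.945) and *Elk3* (r = 0.903, rho = 0.918). Without the 2 libraries farthest from the median of *Trp53*, r was 0.875, 0.875 and 0.888, and within groups it was 0.923, 0.886 and 0.861. These are the highest values among all tested genes and describe likeness over libraries of all 3 groups, which share their preparation.

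*Mdm2*, the E3 ligase that marks p53 for degradation (chromosome 10, 117524780 to 117546730, minus strand), stood at 55.3, 54.6, 55.8, 62.9 and 54.1 TPM in control, at 45.4, 50.9, 54.5 and 46.0 TPM at day 1 and at 48.5, 46.8, 61.2 and 56.1 TPM at day 5. At day 1 all libraries but replicate 3 lay below the lowest control library, and at day 5 replicates 1 and 2 did while the others lay inside the control range. On the log2 scale the change was -0.15 at day 1 (SE 0.07, limma adjusted p = 0.410) and -0.06 at day 5 (limma adjusted p = 0.738). The 95% interval at day 5, from -0.22 to 0.10, lay inside the fold change threshold on both sides. Day 1 replicates 1 and 4, which had the most *Trp53*, had the least *Mdm2* of their group.

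*Cdkn1a* encodes p21, the inhibitor of cyclin-dependent kinases through which p53 halts the cell cycle (chromosome 17, 29309936 to 29319701, plus strand). Its TPM was 45.5, 33.2, 83.2, 34.6 and 51.5 in control, 21.1, 65.1, 38.2 and 42.9 at day 1 and 71.1, 53.2, 41.7 and 43.0 at day 5. The day 5 libraries all lay inside the control range, and within a group the highest library exceeded the lowest 2.5-fold in control, 3.08-fold at day 1 and 1.71-fold at day 5. The fitted log2 fold change was -0.22 at day 1 (SE 0.32, limma adjusted p = 0.826) and 0.16 at day 5 (SE 0.32, limma adjusted p = 0.847). The 95% intervals, from -0.92 to 0.47 and from -0.53 to 0.85, reach past the fold change threshold, so a change of that size was not detectable at this spread. The sign at day 1 turned when day 1 replicate 1 was left out (0.064), and that at day 5 turned without day 5 replicate 1 (-0.018). The SD of *Cdkn1a* within groups was 0.55 on the log2 scale, above the median of 0.17 over all tested genes, 8.38% of which had a larger SD. *Dino*, a noncoding gene on the opposite strand, overlaps an exon of *Cdkn1a*, and reads of the pair cannot be told apart without strand.

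*Ccng1*, the gene of cyclin G1, a p53 target that takes part in feedback on MDM2 (chromosome 11, 40639377 to 40646148, minus strand), had a small spread within groups (SD of 0.09 on the log2 scale) and the lowest adjusted p of the members. Its level was 58.1, 57.6, 61.5, 57.5 and 64.6 TPM in control, 47.9, 54.0, 54.3 and 52.9 TPM at day 1 and 47.8, 47.4, 46.1 and 48.9 TPM at day 5. The libraries of day 1 and of day 5 all lay below every control library. *Ccng1* was the single member of which this held, at day 1, where 3.32% of all tested genes were that way lower, and at day 5, where 5.71% were. Means were 59.9 ± 3.10 TPM (SD, n = 5) in control, 52.3 ± 2.96 TPM (n = 4) at day 1 and 47.5 ± 1.18 TPM (n = 4) at day 5. Its log2 fold change was -0.15 at day 1 (SE 0.06, limma adjusted p = 0.376) and -0.29 at day 5 (SE 0.06, limma adjusted p = 0.0149), a ratio of 0.816. The 95% interval at day 5, from -0.43 to -0.15, lay inside the fold change threshold, so *Ccng1* was lower at day 5 without being called. Without day 5 replicate 3 its adjusted p was 0.0512 (log2 fold change -0.26, limma). Between the days the difference was -0.14 (limma adjusted p = 0.326). *Nudcd2*, on the opposite strand, overlaps an exon of *Ccng1* and had a log2 fold change of -0.08 at day 5 (limma adjusted p = 0.729).

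*Bax*, which permeabilizes the outer mitochondrial membrane (chromosome 7, 45111015 to 45116325, minus strand), was the member with the highest level, at percentile 92.1 of the tested genes by mean control TPM. It measured 169, 163, 159, 149 and 135 TPM in control, 162, 155, 154 and 153 TPM at day 1 and 160, 171, 155 and 161 TPM at day 5. Every MN library but day 5 replicate 2 lay inside the control range. In the fit the log2 fold change was 0.06 at day 1 and 0.10 at day 5 (limma adjusted p = 0.734 and 0.397), and the 95% interval at day 5 ran from -0.03 to 0.24. *Gm45808*, on the same strand, overlaps an exon of *Bax* and averaged at most 1.13 TPM in any group.

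*Bbc3* encodes PUMA, the BH3-only protein that frees BAX and its relatives to act (chromosome 7, 16042318 to 16052130, plus strand). It measured 13.7, 9.71, 8.39, 9.40 and 6.34 TPM in control, 15.8, 13, 8.75 and 13.9 TPM at day 1 and 12.9, 15.1, 14 and 15.7 TPM at day 5. Control replicate 1 lay among the day 5 libraries, and the other control libraries lay below all of them. Means were 9.50 ± 2.68 TPM (SD, n = 5), 12.9 ± 2.99 TPM (n = 4) and 14.4 ± 1.23 TPM (n = 4). The log2 fold change was 0.47 at day 1 (SE 0.19, limma adjusted p = 0.349) and 0.65 at day 5 (SE 0.19, limma adjusted p = 0.0641), a ratio of 1.57. This was the member with the highest log2 fold change at both days, and the call depended on single libraries. *Bbc3* was called at day 5 without control replicate 1 (log2 fold change 0.78, limma adjusted p = 0.0198) and without day 1 replicate 3 (0.65, limma adjusted p = 0.0308), which enters through the shared estimate of spread. With the proximal tubule markers as a covariate it was called as well (0.67, limma adjusted p = 0.0480).

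*Trp53inp1*, whose product aids p53 phosphorylation and apoptosis (chromosome 4, 11156412 to 11175230, plus strand), was 43.7, 42.1, 43.7, 41.6 and 36.8 TPM in control, 38.1, 25.9, 31.2 and 37.6 TPM at day 1 and 27.0, 33.6, 40.3 and 36.7 TPM at day 5. Day 1 replicates 2 and 3 and all day 5 libraries but replicate 3 lay below the control range. On the log2 scale the change was -0.29 at day 1 and -0.25 at day 5 (SE 0.11 for both, limma adjusted p = 0.338 and 0.246).

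*Eda2r*, a death receptor of the TNF receptor family (chromosome X, 96320270 to 96420847, minus strand), was the member with the lowest level, at percentile 8.64 of the tested genes. It was listed at 1.2, 1.89, 2.16, 1.42 and 1.42 TPM in control, at 0.943, 0.933, 1.24 and 1.25 TPM at day 1 and at 1.16, 1.3, 2.19 and 1.11 TPM at day 5. Groups overlapped, with day 5 replicate 3 the highest of all libraries and day 1 replicates 1 and 2 the lowest. The fitted log2 fold change was -0.36 at day 1 (95% interval -0.80 to 0.08, limma adjusted p = 0.484) and -0.12 at day 5 (95% interval -0.55 to 0.32, limma adjusted p = 0.820).

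*Sesn2*, a stress-induced inhibitor of mTORC1 signalling (chromosome 4, 132219335 to 132237815, minus strand), was 6.49, 6.73, 7.40, 7.05 and 6.86 TPM in control, 7.59, 6.72, 7.30 and 6.42 TPM at day 1 and 7.5, 5.94, 7.81 and 6.56 TPM at day 5. The group means of 6.90, 7.01 and 6.95 TPM differed by less than the SD within any group, the smallest of which was 0.343 TPM. Its 95% intervals of -0.15 to 0.27 at day 1 and -0.17 to 0.25 at day 5 lay inside the fold change threshold.

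*Phlda3*, whose product competes with AKT for membrane lipids (chromosome 1, 135693809 to 135697686, plus strand), measured 42.2, 54.9, 43.8, 37.0 and 35.5 TPM in control, 43.6, 38.1, 43.3 and 36.5 TPM at day 1 and 51.8, 56.1, 52.7 and 49.5 TPM at day 5. The day 5 libraries all lay above the day 1 libraries, as for 6.12% of all tested genes, and control replicate 2 lay among the day 5 libraries. Its log2 fold change was -0.02 at day 1 and 0.35 at day 5 (SE 0.10 for both, limma adjusted p = 0.963 and 0.0683). Without control replicate 2 the value at day 5 was 0.43 with an adjusted p of 0.00827 (limma), still under the fold change threshold. The difference between the days was 0.37 (limma adjusted p = 0.112), and without control replicate 2 its adjusted p was 0.0369 (limma). With the distal tubule and collecting duct markers as a covariate the difference between the days was -0.015, while the change at day 5 against control was 0.32 (limma adjusted p = 0.0285).

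**Figure D2:**
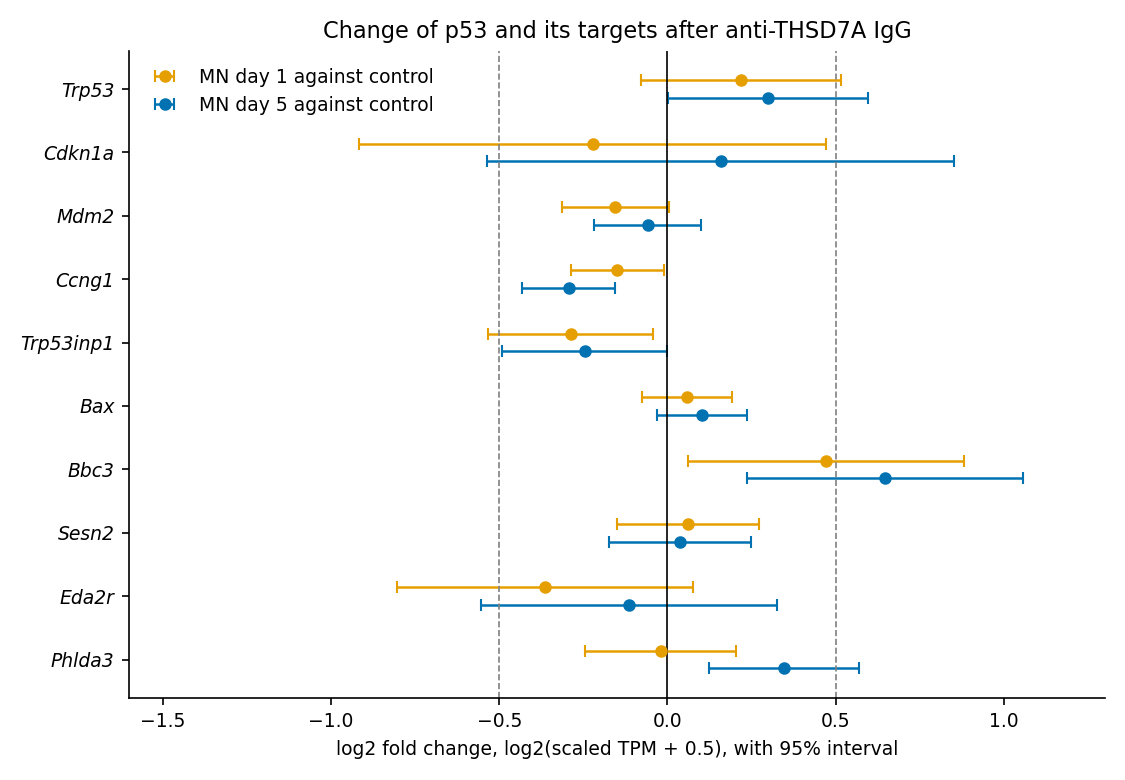
Log2 fold change of each member at MN day 1 and MN day 5 against control with its 95% interval from limma, on the log2(scaled TPM + 0.5) scale, with dashed lines at the fold change threshold of 0.5 on both sides. Points left of 0 are lower in MN; the day 5 interval of Ccng1 lies left of 0 (-0.43 to -0.15) and that of Bbc3 right of 0 (0.24 to 1.06), and those of Cdkn1a are the widest.

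The intervals separate members by what the data could show. Of the 10 members 5 had a 95% interval inside the fold change threshold on both sides at day 1 (*Mdm2*, *Ccng1*, *Bax*, *Sesn2* and *Phlda3*) and 5 at day 5 (*Mdm2*, *Ccng1*, *Trp53inp1*, *Bax* and *Sesn2*). For the others a change past the threshold lay within the interval, most widely for *Cdkn1a*. The members did not move in 1 direction. At day 5 the log2 fold change was above 0 for 6 members and below 0 for 4, and at day 1 for 4 and 6. The comparisons at both days share the control libraries. The TPM of the 10 members, to which *Bax* contributed the largest share, summed to 436 to 513 in control, 439 to 458 at day 1 and 480 to 496 at day 5, where day 1 and day 5 libraries did not overlap and both lay inside the control range.

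Among 29 other p53 targets tested, 0 were called at day 1, beside 0.0908% of all tested genes. At an unadjusted p under 0.05 (limma) there were 4 at day 1, beside 12.6% of all tested genes, and 11 at day 5, beside 20.1%. At day 5, where 2.42% of all tested genes were called higher, 1 target was. It was *Perp*, a membrane protein of desmosomes and an apoptosis effector, at 8.84, 9.48, 9.55, 11.6 and 9.51 TPM in control and 14.2, 14.7, 16.3 and 10.6 TPM at day 5 (log2 fold change 0.51, SE 0.13, limma adjusted p = 0.0301). Day 5 replicate 4 lay inside the control range. The call was lost without any one of control replicates 1, 2, 3 and 5 or day 5 replicates 1, 2 and 3, with log2 fold changes of 0.46 to 0.52 and adjusted p-values of 0.0539 to 0.10 (limma). Beside 6.12% of all tested genes, further targets passed the adjusted p alone at day 5. They were *Dram1*, which acts in autophagy (0.48, limma adjusted p = 0.0139), the tetraspanin *Cd82* (0.36, limma adjusted p = 0.0262) and, lower in MN, the DNA repair gene *Xpc* (-0.26, limma adjusted p = 0.0306). *Plk2* went from 48.1 ± 15.9 TPM (SD, n = 5) in control to 74.9 ± 8.16 TPM (n = 4) at day 5 (log2 fold change 0.74, limma adjusted p = 0.112). Its day 5 libraries lay above all control libraries, as for 5.07% of all tested genes. The median over the 29 targets was 0.00 at day 1 and 0.02 at day 5, where 16 were above 0 and 13 below.

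Of 26 regulators of p53, 24 were tested, since the relatives *Trp63* and *Trp73* did not pass the filter on low values. At day 1 0 were called, beside 0.0908% of all tested genes, and the median log2 fold change was -0.06. At an unadjusted p under 0.05 (limma) there were 3, beside 12.6% of all tested genes. At day 5 there were 8 (limma), *Cdkn2a* among them, beside 20.1% of all tested genes, and 10 of the 24 were above 0 and 14 below. At day 5, where 2.42% of all tested genes were called higher, 1 regulator was, *Cdkn2a*. This gene encodes p16 and, from another reading frame, ARF, which inhibits MDM2, and a value per symbol does not separate the transcripts. It was listed at 0.124, 0, 0.139, 0 and 0 TPM in control, at 0.263, 0, 0 and 0 TPM at day 1 and at 1.25, 2.12, 1.66 and 1.39 TPM at day 5. It passed the filter only through the day 5 libraries and fell out of it when any of these was left out, and its fitted change depends on the number added before the logarithm, from 1.3 to 3.59 over the settings tried. Of the kinases that act on p53, *Chek1* had a log2 fold change of 0.98 at day 5 (limma adjusted p = 0.0627) and *Atm* one of -0.66 (limma adjusted p = 0.151). *Trp53bp2*, whose product binds p53 and steers it to apoptotic targets, was lower at day 5 (-0.37, limma adjusted p = 0.0142), under the fold change threshold.

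**Figure D3:**
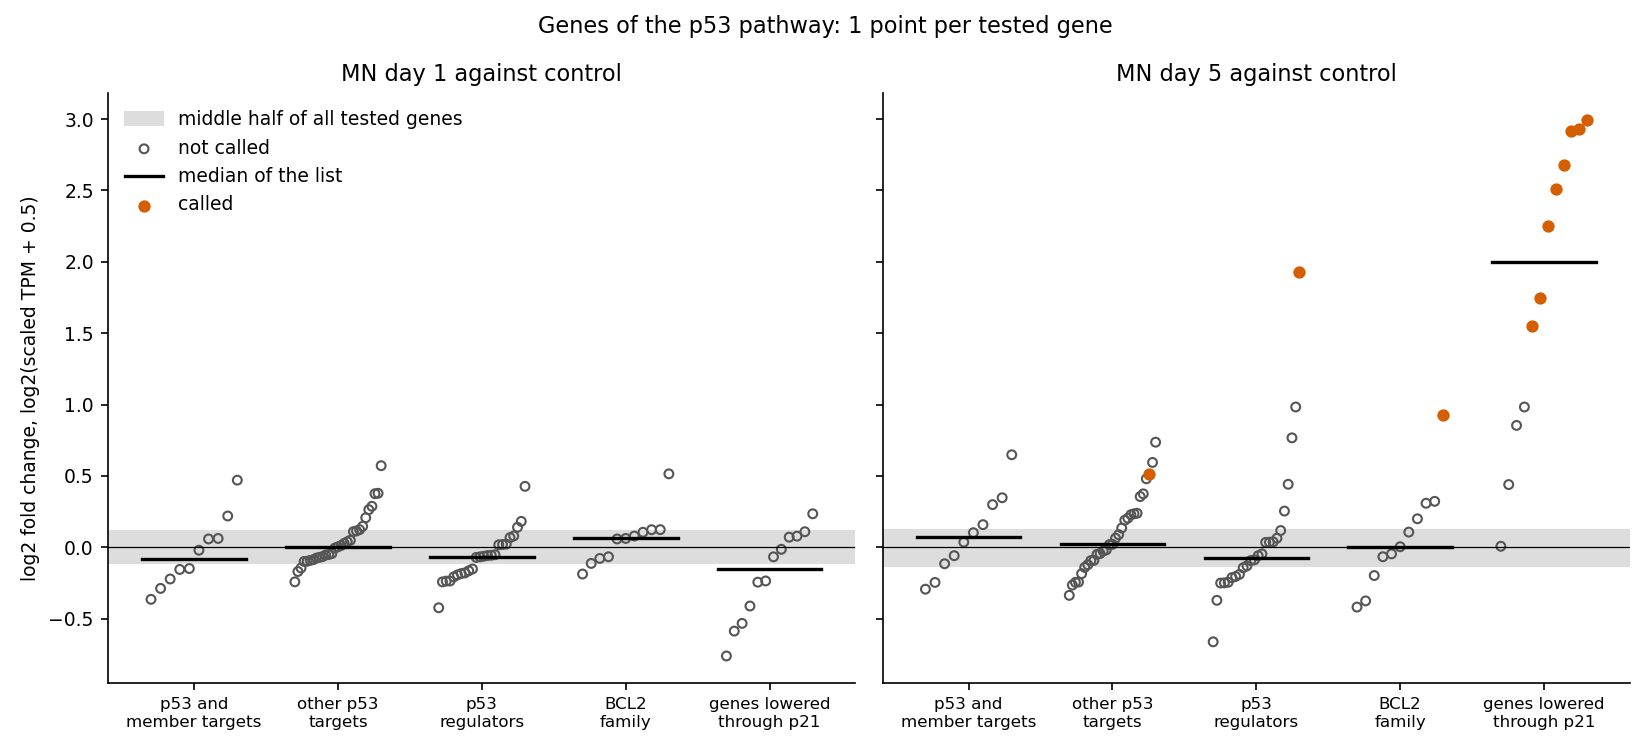
Log2 fold change (log2(scaled TPM + 0.5) scale) of each tested gene of 5 lists at MN day 1 and MN day 5 against control, 1 point per gene, filled where called, with the list median as a bar and a grey band from the lower to the upper quartile of all tested genes. At day 1 no point is filled. At day 5 the 12 genes lowered through p21 have a median of 2.00, or 1.90 without Bub1 and Ccnb1. The single filled regulator is Cdkn2a, listed near 0 TPM in control. Bub1, Ccnb1 and Cdkn2a passed the filter on low values only through the day 5 libraries.

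Among the listed genes that p53 is known to lower through p21, most rose at day 5. These are cell cycle genes bound by the DREAM complex, and 8 of 12 were called higher at day 5, where 2.42% of all tested genes were, with a median log2 fold change of 2.00. They were *Birc5* (2.99), *Ccnb2* (2.93), *Cdk1* (2.92), *Ccnb1* (2.68), *Ccna2* (2.51), *Cdc20* (2.25), *Bub1* (1.75) and *Plk1* (1.55), and *Cdc25c*, *Chek1*, *E2f1* and *Mybl2* were not called. *Ccnb1* and *Bub1* passed the filter on low values only through the day 5 libraries, so that they could enter the test only if they were high there. Of the other 10, 6 were called higher, with a median of 1.90. Where every library had to reach a TPM of 1 the tested genes were 4, of which *Cdc20*, *Cdk1* and *Plk1* were called. In 9 of the 12, *Ccnb1* and *Bub1* among them, the day 5 libraries lay above all control libraries, as for 5.07% of all tested genes. For *Ccnb1* and *Bub1* that position follows in part from the filter. *Cdk1*, the kinase that drives entry into mitosis, went from 5.34, 5.82, 7.86, 4.08 and 3.17 TPM in control to 38.4, 45.0, 44.0 and 35.0 TPM at day 5, with 7.12, 2.44, 4.19 and 9.38 TPM at day 1 (log2 fold change at day 5 2.92, SE 0.31, limma adjusted p = 8.28e-05). The same day 5 libraries held 71.1, 53.2, 41.7 and 43.0 TPM of *Cdkn1a*. At day 1 0 of the 12 were called, beside 0.0908% of all tested genes, and the median was -0.15. At an unadjusted p under 0.05 (limma) there was 1, beside 12.6% of all tested genes. Of the 10 genes other than *Ccnb1* and *Bub1*, 6 were called higher at day 5 than at day 1, beside 1.41% of all tested genes. With *Ccnb1* and *Bub1* the calls numbered 8, the same genes as against control. With the distal tubule and collecting duct markers as a covariate 3 of these calls were lost, *Bub1* (log2 difference 1.83, limma adjusted p = 0.141), *Cdc20* (1.81, limma adjusted p = 0.153) and *Plk1* (1.75, limma adjusted p = 0.163), while the calls of all tested genes between the days went from 259 to 64.

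The same day 5 libraries had the highest mesangial marker sums. The 8 mesangial markers summed to 1833 to 2688 TPM in control, 2318 to 2519 TPM at day 1 and 2835 to 3334 TPM at day 5, so that the day 5 libraries lay above all others. Their log2 fold change at day 5 was above 0 for 7 of 8, with a median of 0.27. *Tagln*, a contractile protein gene of mesangial and smooth muscle cells, was called (1.3, limma adjusted p = 6.39e-04), where 2.42% of all tested genes were called higher. The others, not called, were *Acta2* (0.55), *Ren1* (0.46), *Serpine2* (0.42), *Itga8* (0.13), *Des* (0.11), *Gata3* (0.02) and *Pdgfrb* (-0.17), so the markers did not rise alike. The 8 endothelial markers were all above 0 at day 5 with a median of 0.20 and 0 called, and their sums of 5726 to 6105 TPM overlapped those of control (4825 to 6099 TPM). None of these 16 markers was excluded by the filter on low values. The 9 podocyte markers had a median of -0.18 at day 5, with 4 above 0, 5 below and 0 called. Of these, *Synpo* (-0.46, limma adjusted p = 0.00197) and *Cd2ap* (-0.29, limma adjusted p = 0.0117) were lower, under the fold change threshold. At any fold 6.12% of all tested genes had an adjusted p under 0.05. The part of mesangial cells, endothelial cells and podocytes in the rise of the cell cycle genes was not tested.

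The p21 relative *Cdkn1c*, which encodes p57 and is a feature of mature podocytes, was called higher at day 5, where 2.42% of all tested genes were. It went from 1245 ± 151 TPM (SD, n = 5) in control and 1451 ± 108 TPM (n = 4) at day 1 to 1997 ± 171 TPM (n = 4), a log2 fold change of 0.72 (SE 0.10, limma adjusted p = 7.08e-04). Of 8 tested relatives of members it was the 1 called at day 5, where their median was -0.09. The other p21 relative, *Cdkn1b* (p27), averaged 82.5 TPM in control and 75.7 TPM at day 5 (-0.09, limma adjusted p = 0.560).

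**Figure D4:**
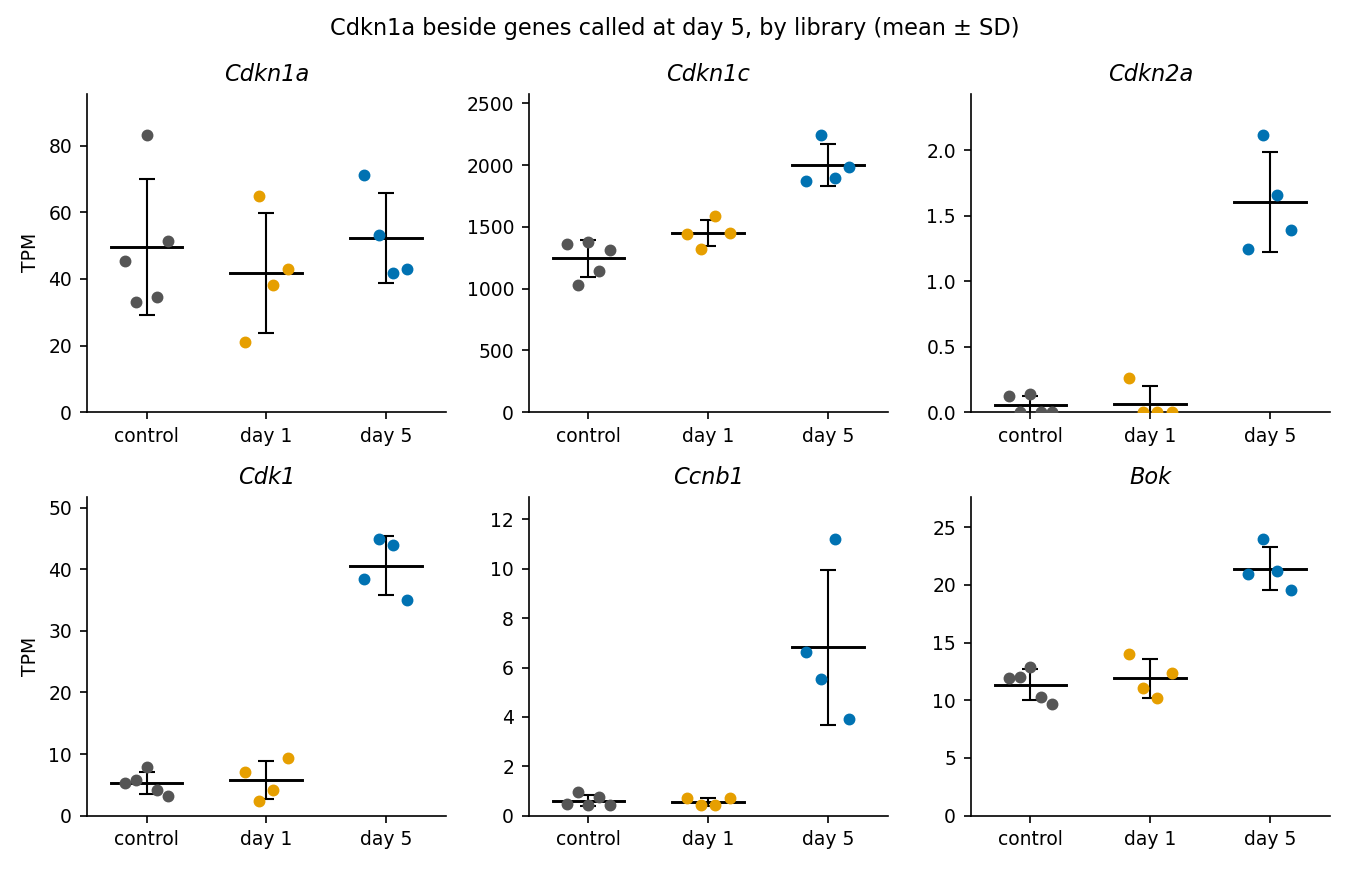
TPM per library (points) with the group mean and SD (bars) of Cdkn1a beside 5 genes called at day 5, for control (n = 5), MN day 1 (n = 4) and MN day 5 (n = 4). Each axis starts at 0 and has its own scale. The day 5 libraries of Cdkn1a lie inside the control range, and those of Cdkn1c, Cdkn2a, Cdk1, Ccnb1 and Bok lie above all control and day 1 libraries. Cdkn2a and Ccnb1 passed the filter on low values only through the day 5 libraries.

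Among the relatives of *Bax* in the BCL2 family, 11 of 15 genes were tested. At day 5, where 2.42% of all tested genes were called higher, 1 of the family was. It was *Bok*, a proapoptotic member, at 12, 12.1, 12.9, 10.3 and 9.65 TPM in control, 14, 11, 10.2 and 12.4 TPM at day 1 and 20.9, 24, 21.2 and 19.5 TPM at day 5 (log2 fold change 0.92, SE 0.11, limma adjusted p = 2.31e-04). *Bak1*, which acts beside *Bax*, was at 0.31 (limma adjusted p = 0.0470), under the fold change threshold, and *Bcl2l11*, the gene of the BH3-only protein BIM, at -0.42 (limma adjusted p = 0.0710). The median of the family was 0.06 at day 1 and 0.00 at day 5. At day 1 0 were called and 0 had an unadjusted p under 0.05 (limma), beside 0.0908% and 12.6% of all tested genes. At day 5 6 of the 11 had an unadjusted p under 0.05 (limma), beside 20.1% of all tested genes. The log2 fold changes of the 11 went both ways at day 5, with 6 above 0 and 5 below.

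Members such as *Sesn2*, *Bbc3* and *Cdkn1a* also answer to stress signals other than p53. Of 10 tested targets of ATF4 and CHOP, transcription factors of the integrated stress response, 1 was called higher at day 5, beside 2.42% of all tested genes. It was *Psat1* (log2 fold change 0.89, limma adjusted p = 0.0129), a call that was lost without day 5 replicate 2 (0.80, limma adjusted p = 0.0539). Of 10 immediate-early genes 2 were called at day 1, beside 0.0908% of all tested genes. They were *Egr1* (0.94, limma adjusted p = 0.0271) and *Fosb* (1.37, limma adjusted p = 0.0395), and with either tubule marker score as covariate 0 were called. At day 5, where 2.42% of all tested genes were called higher, *Egr1* (0.65, limma adjusted p = 0.0162) and *Junb* (0.51, limma adjusted p = 0.0175) were. Of 13 fits that each left out 1 library, 8 kept the call of *Egr1* at day 1, 2 that of *Fosb* at day 1, 11 that of *Egr1* at day 5 and 8 that of *Junb* at day 5. *Junb* fell under the fold change threshold without control replicate 2 (0.49), 4 (0.47) or 5 (0.48) or day 5 replicate 1 (0.48). It also did so with unscaled TPM (0.47), with array quality weights (0.47) and with the replicate block (0.48), which also took the call of *Egr1* at day 5 (limma adjusted p = 0.0707). In the 13 fits that left out 1 library, limma adjusted p-values reached 0.106 for *Egr1* and 0.136 for *Fosb* at day 1, and 0.0623 for *Egr1* and 0.0602 for *Junb* at day 5.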

How the data were processed

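The authors trimmed the paired-end reads with Trimmomatic 0.39, quantified them with kallisto 0.46.2 against GRCm39 (Ensembl 104) and deposited TPM per gene symbol for 13 libraries; tools are per the submitters' processing notes. Their own tests used counts, which were not used here; depth is unknown, and no counting interval was given. TPM were scaled by median-of-ratios factors (15772 genes present in all libraries) and taken to log2 after adding 0.5, so that fold changes of low genes are understated. Tests covered 14322 genes that reached a TPM of 1 in 4 or more libraries, in 1 fit of all groups with limma 3.58.1 (R 4.3.3; eBayes with trend), and p-values were adjusted per contrast by the Benjamini-Hochberg method. The fit was tested on simulated data. Members and gene lists were chosen with earlier results of these data known. Genes named are the 10 members, list genes called in any contrast, up to 5 list genes with the smallest unadjusted p, and the 3 genes most like *Trp53*. *Wrap53*, *Nudcd2*, *Gm45808* and *Dino* were named for their overlap, *E2f1*, *Mybl2*, *Cdc25c* and *Cdkn1b* to complete a count, and all mesangial markers to give the whole list. Replicate numbers did not pair libraries and served in an alternative. Loci are from the GENCODE annotation of GRCm39. *Trp53cor1* and *Kirrel1* were not analysed here. Alternatives covered the pseudocount, scaling, filter, variance trend, groups in the fit, weights, a replicate block, tubule marker scores and leaving out each library. Plots used matplotlib 3.10.9.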

Additional observations from a re-analysis of the deposited data

Results flagged for a closer look

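Within groups of 4 or 5 libraries, 66 groups of 22 genes were examined for a library that stands far from the rest, where chance marks about 1 group in 20, and 4 were found. *Mdm2* in control replicate 4 was 62.9 TPM against 54.1 to 55.8 TPM in the other controls, a gap of 0.813 of the group's range. The same library held 11.6 TPM of *Perp* against 8.84 to 9.55 TPM (gap 0.740 of the range). *Ccna2* in day 1 replicate 4 was 1.85 TPM against 0.950 to 1.05 TPM (gap 0.886). *Cdkn2a* was listed at 0.263 TPM in day 1 replicate 1 and at 0 in the other day 1 libraries, a gap of 1 by construction.

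Of 92 pathway genes examined, 11 differed between day 5 and day 1 at an adjusted p under 0.05 (limma, Benjamini-Hochberg) beside 2.38% of all tested genes, and none of them was a member. The log2 differences, day 5 against day 1, were 3.34 for *Ccnb2*, 3.10 for *Ccna2*, 2.88 for *Birc5*, 2.84 for *Cdk1*, 2.69 for *Ccnb1*, 2.28 for *Bub1*, 2.01 for *Cdc20*, 1.79 for *Plk1*, 1.91 for *Cdkn2a*, 0.82 for *Bok* and 0.45 for *Cdkn1c*. *Cdkn2a*, *Ccnb1* and *Bub1* passed the filter on low values only through the day 5 libraries, so their entry into the test required a high level there, and the fitted difference of *Cdkn2a*, listed at 0 to 0.263 TPM at day 1, depends on the number added before the logarithm. With the distal tubule and collecting duct marker score as covariate the adjusted p-values of *Bub1*, *Cdc20*, *Plk1*, *Cdkn2a* and *Bok* were 0.141 to 0.163 (limma), and 64 in place of 259 of all tested genes were called between the days.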

How the results depend on the processing

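The number of members called was 0 in every contrast under all settings tried, with these exceptions at day 5: 1 (*Ccng1*) by adjusted p alone, 1 (*Bbc3*) with a proximal tubule marker score as covariate, and 0 to 1 when each library was left out in turn. For the other p53 targets at day 5 the count of 1 became 4 by adjusted p alone, and 0 with a pseudocount of 1, with unscaled TPM, without a filter, with array quality weights and with the proximal tubule score, and was 0 to 2 over leave-one-out fits (2 without control replicate 4). Same-numbered libraries had correlated deviations of -0.056 to 0.091, so the numbers did not pair them; with the replicate block 0 members were called in each contrast, 0 other p53 targets at day 5, and the adjusted p of *Ccng1* was 0.0751 (limma).

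A direction turned in these cases. With a distal tubule and collecting duct marker score as covariate, chosen after seeing the data, the log2 fold change at day 1 was -0.14 for *Trp53*, 0.011 for *Cdkn1a* and 0.33 for *Phlda3*, and between day 5 and day 1 -0.067 for *Bax*, 0.0086 for *Sesn2* and -0.015 for *Phlda3*, which without the covariate was 0.37 with a 95% interval from 0.13 to 0.60. With the proximal tubule score it was 0.15 for *Phlda3* at day 1, and -0.034 for *Bax* and 0.018 for *Sesn2* between the days; quantile normalization gave 0.0061 for *Sesn2* between the days. Leaving out each library gave -0.48 to 0.064 for *Cdkn1a* and -0.068 to 0.066 for *Phlda3* at day 1, -0.018 to 0.36 for *Cdkn1a* and -0.018 to 0.096 for *Sesn2* at day 5, and between the days -0.036 to 0.21 for *Trp53*, -0.063 to 0.13 for *Trp53inp1* and -0.080 to 0.034 for *Sesn2*. The cause of these turns was not tested.

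*Ccng1* kept an adjusted p under 0.05 at day 5 in 24 of 26 alternatives (0.00286 to 0.0751, limma). Over all tested genes the 13 calls at day 1 ranged from 0 with either tubule score to 218 without control replicate 5, so the background at day 1 is uncertain. Of the genes lowered through p21, 3 were called at day 5 (*Cdc20*, *Cdk1* and *Plk1*) where every library had to reach a TPM of 1, which leaves fewer genes tested. Depth was unknown, and 4 or 5 libraries per group limit the precision.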
